A study of Mus musculus with 64 samples.

Results

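Macrophages from BALB/c bone marrow were given IFN-γ at 10 U/ml or LPS at 5 ng/ml, and their transcripts were compared at the matching times of 1 h and 2 h. The comparison holds 8 of the 64 Affymetrix arrays of the series, 4 a side, with 2 arrays for each stimulus and time. These were IFN-γ at 1 h (2 arrays), IFN-γ at 2 h (2 arrays), LPS at 1 h (2 arrays) and LPS at 2 h (2 arrays), and 2 arrays of untreated BALB/c cells at 0 h show the starting level. All of these cells were grown from femurs of male mice aged 7 to 8 weeks, were cultured with CSF1, the growth factor of the macrophage lineage, and were stimulated on day 7 of culture. Each array held biotin-labelled RNA from a separate well of a 24-well plate. The labels do not tie wells to mice or preparations, so p-values measure the spread between wells, which may be technical. There were no untreated wells at 1 h or 2 h, so a difference from 0 h includes whatever time in culture changed, whereas the comparison of the stimuli at matching times does not.

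IFN-γ is the type II interferon made by T and NK cells. Its receptor signals through the kinases Jak1 and Jak2, and gamma-activated sites (GAS) are known from promoters of its target genes, among them GTPases, antigen presentation genes and chemokines. LPS, a part of the bacterial outer membrane, binds Tlr4 with Cd14 and Ly96 and signals through Myd88 and Ticam1 to NF-κB, the MAP kinases and interferon regulatory factors, which drive cytokines, chemokines and the inhibitors that end the response. In macrophages both stimuli are known as activators, and each is known to start its transcription within the first hour.

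Levels are log2 of the deposited intensity. Differences are IFN-γ minus LPS on the log2 scale ± SE from limma with time as a block, each as the mean over both times with n = 4 arrays a side, and p-values are adjusted over 18820 genes. Calls required both an adjusted p below 0.05 and a difference of 1 or more, which is a change of 2-fold. A level of 4.19 is the 40th percentile of all values, and where 1 side lies there the fold depends on the background of the array. Levels of different genes are not compared, because each probe set has its own response. In cells of a well as a whole, a lower level in every cell cannot be told apart from the same level in fewer cells.

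The arrays had median intensities between 25.6 and 28.2. The 8 macrophage markers measured lay between 8.64 and 13.35, with Lyz2 the highest, and their summed levels were 91.0 to 91.9 with IFN-γ and 90.9 to 91.7 with LPS. These sums hold opposite differences, with Cd14 lower and Fcgr1 higher with IFN-γ. No macrophage marker was called over both times, and 1 was called lower at 1 h alone. Markers of granulocytes, T, B, NK and dendritic cells, erythroid cells and fibroblasts did not exceed 6.20 on any array, and none of them was called. Replicate 1 of IFN-γ at 2 h stood apart from its replicate. There, 20 genes were over 1.5 log2 higher than in replicate 2, with a largest gap of 4.22 in Il1b, and 9 of the 20 were genes called risen with LPS against 0 h. Those of the 20 genes that are described below are therefore given with and without that array. Probe sets without an annotated gene parted 11 arrays of the series from the other 53, and 2 of the 11 were in this comparison, replicate 2 of IFN-γ at 2 h and replicate 2 of LPS at 1 h, 1 on each side.

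Within 2 h the stimuli had parted the cells in many transcripts, most of them low with IFN-γ and high with LPS. In all, 318 genes were called (1.69% of those tested). Of these, 91 were higher (0.484%) and 227 lower (1.21%) with IFN-γ, while the median over all genes was 0.01. The largest differences were of 6.13 and 6.10 in the lower group, in Cxcl1 and Il1b, and of 3.51 in the higher group, in Cxcl9. Among the genes called higher 89 of 91, and among those called lower 227 of 227, had both IFN-γ arrays on the same side of both LPS arrays at each time. Over all genes tested the IFN-γ arrays lay above the LPS arrays in this way in 8.09% and below them in 6.51%. The calls were made from these same arrays, so the separation of called genes largely follows from the call and is no separate support. Of the lists of genes described below, 334 of 371 members were measured, of which 16 were called higher and 76 lower. The other members were not analysed here. Because the lists were chosen with earlier results of these data known, their counts and ranks only describe these members.

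**Figure D1:**
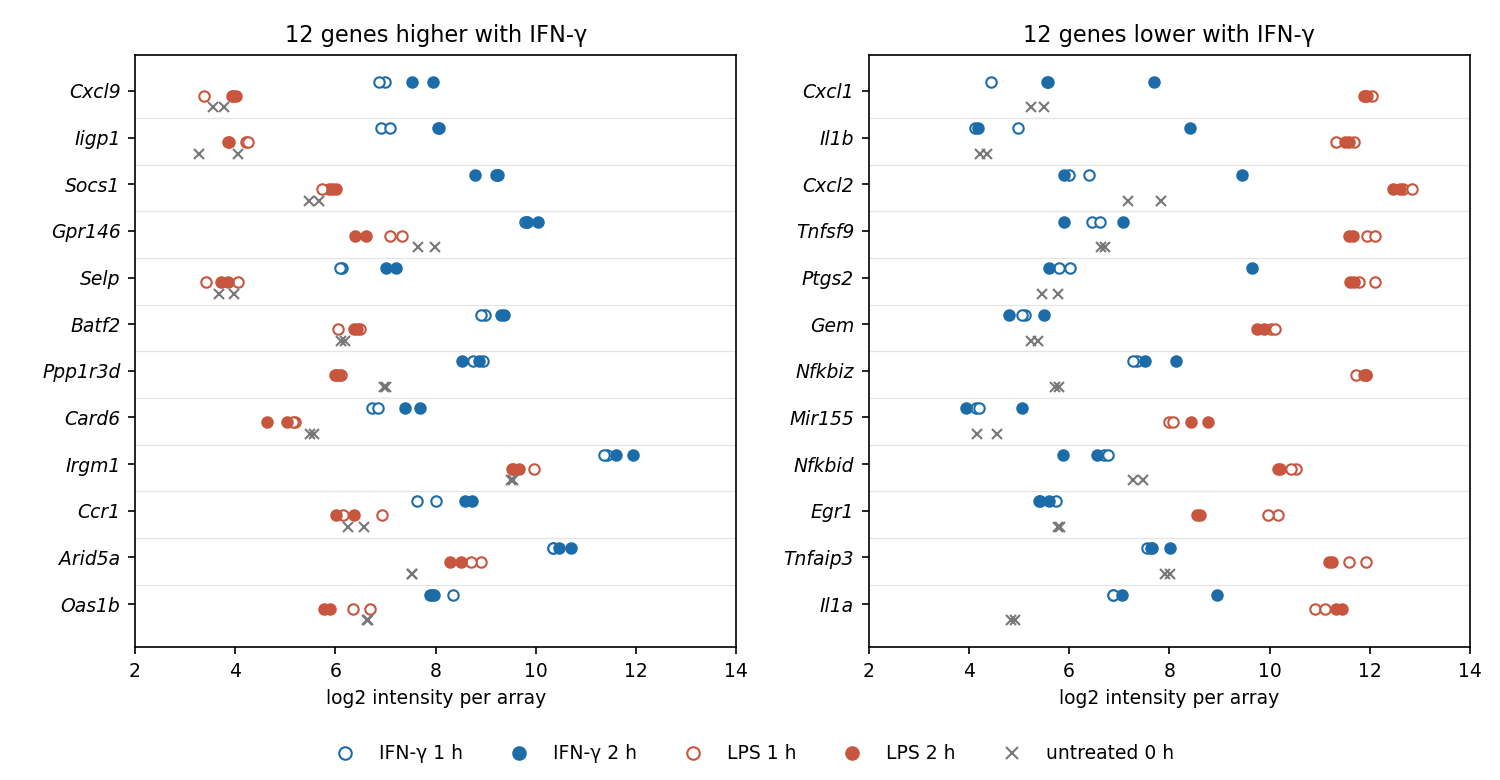
Level of each array (log2 intensity, horizontal axis) for the 12 genes with the largest positive difference (left) and the 12 with the largest negative difference (right) between IFN-γ and LPS. Circles are arrays with IFN-γ (blue) or LPS (red), open at 1 h and filled at 2 h, and crosses are untreated cells at 0 h. Genes were picked from calls whose IFN-γ arrays lie on 1 side of the LPS arrays at each time, so this separation was fixed by the choice. Gene-model names were left out. The filled blue circle that stands apart in Il1b (8.41), Cxcl2 (9.46) and Ptgs2 (9.64) is replicate 1 at 2 h.

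The transcript with the largest positive difference was that of Cxcl9, a chemokine for T cells that carry Cxcr3. Its levels were 6.98 and 6.87 at 1 h and 7.95 and 7.52 at 2 h with IFN-γ, against 3.38 and 3.95 at 1 h and 3.94 and 4.01 at 2 h with LPS. Untreated cells had 3.55 and 3.77, so the LPS arrays lay at the dim end of the scale and near the untreated level. The difference was 3.51 ± 0.16, or 11.4-fold (adjusted p = 1.5e-07). Iigp1, a GTPase that attacks the vacuoles of intracellular parasites, had 6.90, 7.08, 8.04 and 8.07 with IFN-γ, in the order of 1 h and then 2 h, against 4.21, 4.26, 3.85 and 3.87 with LPS. All 4 IFN-γ arrays lay above all 4 LPS arrays, by 3.47 ± 0.24 or 11.1-fold (adjusted p = 2.7e-06), again with LPS at the dim end. Socs1, which inhibits JAK kinases and so ends the interferon signal, had 9.21, 9.24, 9.22 and 8.79 with IFN-γ, against 5.88, 5.73, 6.02 and 5.93 with LPS. It was level over both times in each group and did not overlap between them, at 3.22 ± 0.13 or 9.34-fold (adjusted p = 8.1e-08).

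Gpr146, an orphan G protein-coupled receptor, had 9.82, 9.79, 10.05 and 9.83 with IFN-γ, against 7.33, 7.09, 6.61 and 6.39 with LPS and 7.65 and 7.99 at 0 h. The IFN-γ arrays lay above the untreated level and the LPS arrays below it, and the difference was 3.02 ± 0.17 (adjusted p = 5.2e-07). Ppp1r3d, a subunit that directs protein phosphatase 1 to glycogen, had the same order, with 8.95, 8.75, 8.86 and 8.52 with IFN-γ, against 6.02, 6.12, 6.00 and 6.08 with LPS and 6.97 and 7.00 at 0 h (2.72 ± 0.11, adjusted p = 8.5e-08). Selp, the adhesion molecule P-selectin, had 6.14, 6.10, 7.21 and 7.01 with IFN-γ, against 4.06, 3.42, 3.72 and 3.86 with LPS (2.85 ± 0.20, adjusted p = 2.9e-06). In this gene the LPS arrays were at the dim end of the scale, and both IFN-γ arrays at 2 h lay above both at 1 h. The remaining members of the 12 were Batf2, Card6, Irgm1, Ccr1, Arid5a and Oas1b, with differences between 1.85 in Oas1b and 2.80 in Batf2. Ccr1, the receptor of Ccl3 and Ccl5, was higher on every IFN-γ array (7.63 to 8.72) than on any LPS array (6.02 to 6.93), at 1.87 ± 0.24. Arid5a, an RNA-binding protein known to stabilise Il6 transcripts, had 10.34 to 10.71 with IFN-γ and 8.28 to 8.90 with LPS, and untreated cells had 7.53 on both arrays.

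On the other side stood transcripts of the early LPS response. Cxcl1, a chemokine that draws neutrophils, had 5.56, 4.45, 7.69 and 5.58 with IFN-γ, against 12.05, 11.94, 11.91 and 11.88 with LPS. LPS arrays were within 0.2 of each other and far above the IFN-γ arrays, which were near the untreated levels of 5.23 and 5.50 apart from replicate 1 at 2 h. The difference was -6.13 ± 0.45, or 69.9-fold lower (adjusted p = 4.6e-06), and -6.72 ± 0.24 without that array. Il1b, the secreted fever cytokine of the inflammasome pathway, had 4.13, 4.99, 8.41 and 4.19 with IFN-γ, against 11.32, 11.68, 11.51 and 11.59 with LPS. The groups did not overlap, and the difference was -6.10 ± 0.70 (adjusted p = 0.00018), or -7.11 ± 0.21 without replicate 1 at 2 h. Cxcl2, a chemokine of the same kind as Cxcl1, had 6.00, 6.40, 9.46 and 5.90 with IFN-γ, against 12.66, 12.84, 12.46 and 12.61 with LPS, and Ptgs2, the inducible cyclooxygenase of prostaglandin synthesis, had 6.02, 5.80, 9.64 and 5.59, against 11.79, 12.11, 11.61 and 11.69. Both were lower on every IFN-γ array, at -5.70 ± 0.60 for Cxcl2 and -5.04 ± 0.68 for Ptgs2, and without the array that stood apart these were -6.59 ± 0.13 and -6.05 ± 0.12.

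In other genes of the 12 that array stood less far apart. Tnfsf9, a co-stimulatory ligand for T cells, had 6.46, 6.62, 7.08 and 5.90 with IFN-γ, against 11.95, 12.10, 11.58 and 11.67 with LPS (-5.31 ± 0.21, 39.6-fold lower, adjusted p = 7.1e-08). Gem, a small GTPase that restrains calcium channels, had 5.12, 5.06, 5.49 and 4.80, against 10.03, 10.10, 9.89 and 9.75 (-4.83 ± 0.15, adjusted p = 2.6e-08). In both genes the IFN-γ arrays lay around the untreated level, which was 6.63 and 6.71 for Tnfsf9 and 5.23 and 5.37 for Gem. Nfkbiz, Mir155, Nfkbid, Egr1, Tnfaip3 and Il1a completed the 12, with differences between -4.29 in Nfkbiz and -3.76 in Il1a, the last of which was -4.21 without replicate 1 of IFN-γ at 2 h. Nfkbiz and Il1a differed from the others of the 12 in that all 4 IFN-γ arrays lay above both untreated arrays, at 7.28 to 8.13 against 5.71 and 5.80 for Nfkbiz and at 6.87 to 8.95 against 4.92 and 4.85 for Il1a.

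Promoters of the called genes were read from RefSeq for the mouse build GRCm38.p6, from 250 bases before to 50 bases after each start, and searched on both strands. The motifs were GAS (TTCNNNGAA), the site of STAT dimers, ISRE (GAAANNGAA), a core of the site of interferon-regulated complexes, the κB consensus, the site of NF-κB, AP-1 (TGANTCA), the site of Fos and Jun dimers, and the CArG box, the site of serum response factor. Matches of different motifs could overlap, and overlapping matches of 1 motif were counted separately. A GAS match was found in 18 of 83 promoters of genes called higher with IFN-γ (21.7%), in 23 of 228 of those called lower (10.1%) and in 7.72% of the 18141 promoters of all genes. The κB consensus was found in 6.02% of promoters of genes called higher, 12.7% of those called lower and 4.97% of all. ISRE matches were in 18.1%, 10.1% and 7.87% of these sets, AP-1 matches in 8.43%, 7.46% and 6.74%, and CArG boxes in 0%, 2.63% and 1.41%, in the same order. These shares are descriptions, with promoters found for 67 of the 91 genes called higher and 173 of the 227 called lower.

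**Figure D2:**
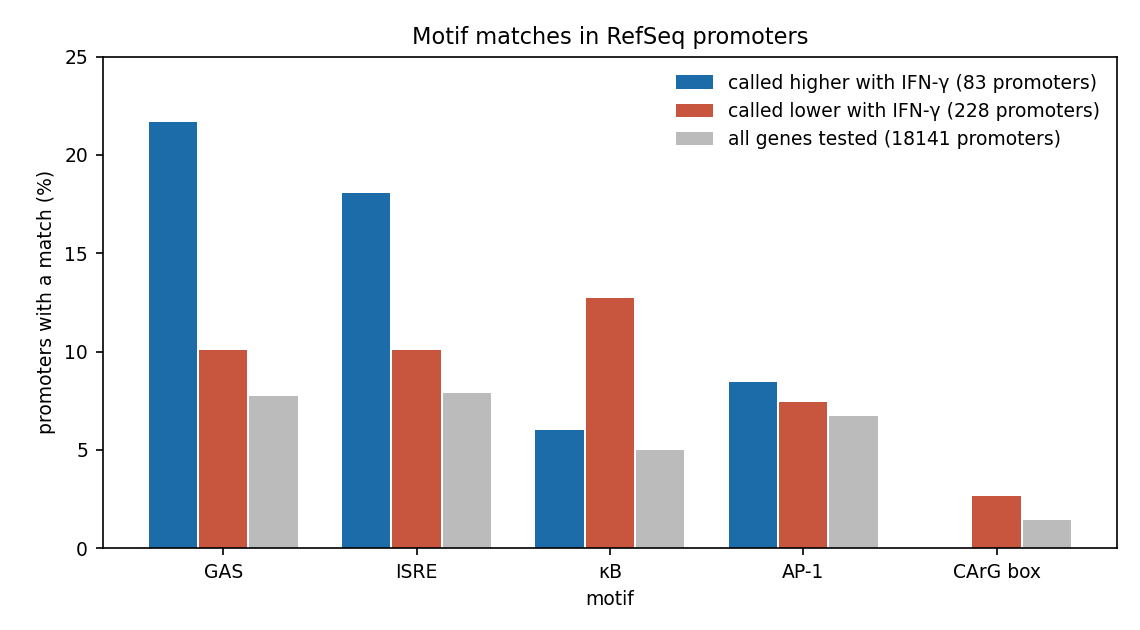
Share of RefSeq promoters with at least 1 match to a motif (percent, vertical axis) for genes called higher with IFN-γ (blue, 83 promoters), called lower (red, 228 promoters) and all genes tested (grey, 18141 promoters). GAS and ISRE have their tallest bars in genes called higher and κB in genes called lower, while the AP-1 bars lie between 6.74% and 8.43%.

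The promoters shown next are those of Gpr146, which had the largest difference among the named genes with a GAS match, and of Gbp7, Irf8 and Cish, which were chosen after their values were seen because each holds 2 GAS matches. Of these 4 genes Cish was lower with IFN-γ than with LPS and the others were higher. The windows were chr5:139380389-139380688 on the + strand for Gpr146, at 1 of its 3 annotated starts, chr3:142530086-142530385 on the + strand for Gbp7, chr8:120736108-120736407 on the + strand for Irf8, at 1 of its 2 annotated starts, and chr9:107296409-107296708 on the + strand for Cish. In Gpr146 and Irf8 only 1 of the promoters held a GAS or κB match. Capitals mark the GAS matches, which start 119 bases before the start of Gpr146, 106 and 87 bases before that of Gbp7, and 171 and 153 bases before that of Irf8. In Cish they begin 0 and 11 bases after the start.
Gpr146: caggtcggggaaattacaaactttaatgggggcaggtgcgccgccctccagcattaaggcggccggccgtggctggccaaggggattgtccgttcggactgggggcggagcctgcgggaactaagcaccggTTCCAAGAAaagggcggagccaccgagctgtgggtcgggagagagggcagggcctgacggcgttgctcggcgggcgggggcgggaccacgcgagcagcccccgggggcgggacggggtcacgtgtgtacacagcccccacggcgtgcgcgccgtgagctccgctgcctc
Gbp7: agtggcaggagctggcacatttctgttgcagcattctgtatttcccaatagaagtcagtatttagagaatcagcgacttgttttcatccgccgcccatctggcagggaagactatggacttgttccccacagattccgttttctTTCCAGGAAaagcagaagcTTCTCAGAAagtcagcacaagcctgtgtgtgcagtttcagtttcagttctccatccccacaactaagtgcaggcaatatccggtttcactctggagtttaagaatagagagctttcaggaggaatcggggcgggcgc
Irf8: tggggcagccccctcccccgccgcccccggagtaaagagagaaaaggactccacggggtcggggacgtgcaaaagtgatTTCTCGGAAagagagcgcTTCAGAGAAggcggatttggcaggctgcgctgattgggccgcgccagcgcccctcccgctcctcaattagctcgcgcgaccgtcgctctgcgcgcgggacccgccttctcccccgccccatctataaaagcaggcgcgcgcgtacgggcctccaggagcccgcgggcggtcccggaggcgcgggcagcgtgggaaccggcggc
Cish: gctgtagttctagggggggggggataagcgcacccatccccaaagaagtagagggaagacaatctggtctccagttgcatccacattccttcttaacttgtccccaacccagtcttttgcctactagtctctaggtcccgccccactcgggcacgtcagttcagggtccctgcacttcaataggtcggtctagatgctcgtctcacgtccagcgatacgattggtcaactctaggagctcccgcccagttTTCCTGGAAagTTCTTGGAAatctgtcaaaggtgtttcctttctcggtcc
Of the named genes with a κB match, those with the largest differences were Cxcl1, Cxcl2, Nfkbid, Tnfaip3 and Nfkbia, all lower with IFN-γ. They were picked for holding this motif, so their sharing it is not a result. Other genes of large difference had a promoter with neither a GAS nor a κB match. Among these were Il1b (-6.10), Ptgs2 (-5.04) and Il1a (-3.76) on the lower side and Cxcl9 (3.51) and Socs1 (3.22) on the higher side. For the genes with a κB match, the windows were chr5:90890995-90891294 for Cxcl1 and chr5:90903649-90903948 for Cxcl2, both on the + strand. Nfkbid had chr7:30422156-30422455 on the + strand. Tnfaip3 had chr10:19015361-19015660 and Nfkbia chr12:55492598-55492897, both on the - strand. Nfkbid had 3 annotated starts, all with a match, and Tnfaip3 had 2, of which 1 had a match. The promoter with the most matches is shown. Capitals mark κB matches, and a run longer than the motif holds overlapping matches. They begin 71 bases before the start in Cxcl1, 97 in Cxcl2, 226 and 181 in Nfkbid, 125 and 12 in Tnfaip3, and 29 in Nfkbia.
Cxcl1: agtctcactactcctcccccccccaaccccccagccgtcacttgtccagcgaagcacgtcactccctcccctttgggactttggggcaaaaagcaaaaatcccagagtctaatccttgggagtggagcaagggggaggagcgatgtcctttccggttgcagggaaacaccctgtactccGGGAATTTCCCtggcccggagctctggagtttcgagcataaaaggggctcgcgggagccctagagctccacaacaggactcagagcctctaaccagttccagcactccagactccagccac
Cxcl2: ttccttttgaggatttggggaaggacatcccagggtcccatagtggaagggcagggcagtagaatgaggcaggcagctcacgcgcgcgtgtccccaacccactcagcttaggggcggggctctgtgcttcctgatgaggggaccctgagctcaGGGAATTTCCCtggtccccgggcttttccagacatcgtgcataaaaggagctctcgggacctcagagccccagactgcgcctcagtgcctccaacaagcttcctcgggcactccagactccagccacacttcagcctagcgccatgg
Nfkbid: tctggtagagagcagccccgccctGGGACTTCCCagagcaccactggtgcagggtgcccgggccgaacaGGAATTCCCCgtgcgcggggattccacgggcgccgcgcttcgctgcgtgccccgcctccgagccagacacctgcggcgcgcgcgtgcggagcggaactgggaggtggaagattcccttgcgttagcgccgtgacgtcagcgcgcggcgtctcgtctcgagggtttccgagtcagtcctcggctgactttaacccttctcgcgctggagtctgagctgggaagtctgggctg
Tnfaip3: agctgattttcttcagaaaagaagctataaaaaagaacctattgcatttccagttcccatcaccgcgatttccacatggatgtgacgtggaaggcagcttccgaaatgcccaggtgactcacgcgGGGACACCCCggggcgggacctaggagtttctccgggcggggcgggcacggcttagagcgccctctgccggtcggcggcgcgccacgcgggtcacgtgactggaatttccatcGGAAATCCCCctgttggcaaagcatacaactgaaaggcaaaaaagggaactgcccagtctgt
Nfkbia: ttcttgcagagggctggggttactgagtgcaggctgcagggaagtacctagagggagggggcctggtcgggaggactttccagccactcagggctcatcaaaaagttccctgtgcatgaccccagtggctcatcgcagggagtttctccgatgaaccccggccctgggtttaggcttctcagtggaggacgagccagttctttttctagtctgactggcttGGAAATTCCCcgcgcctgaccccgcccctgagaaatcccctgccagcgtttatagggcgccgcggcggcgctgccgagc

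Of 13 STAT and IRF genes 2 were higher with IFN-γ and none was lower, with a median of 0.36, and 8 had IFN-γ arrays above LPS arrays at each time. These were Batf2, a partner of the Irf proteins (2.80 ± 0.12, 8.91 to 9.36 with IFN-γ against 6.06 to 6.49 with LPS), and Irf8, a factor that macrophages need to develop (1.43 ± 0.13, 11.42 to 11.79 against 9.95 to 10.43). Irf1, a transcription factor that relays the interferon signal, had 12.07, 11.99, 11.84 and 11.98 with IFN-γ, against 11.84, 11.89, 11.53 and 11.54 with LPS and 8.50 and 8.39 at 0 h. It was thus above 0 h with both stimuli, by 3.53 with IFN-γ and 3.26 with LPS. The difference between the stimuli of 0.27 ± 0.10 missed the threshold (adjusted p = 0.22). Stat2 and Nlrc5 had differences of 0.96 and 0.74, under the minimum, with adjusted p of 0.00031 and 0.0049, and at 2 h alone Stat2 was called higher at 1.02 (adjusted p = 0.0024). Of 9 receptors and JAK kinases none was called (median -0.06), and Jak2, with -0.76 ± 0.12, and Ifngr1, the ligand-binding receptor chain, with -0.62 ± 0.16, were the farthest from 0.

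Of 10 feedback inhibitors of JAK and STAT, Socs1 was higher and Cish lower with IFN-γ. Cish, an SH2 protein best known for restraining cytokine receptors, had 6.53, 6.47, 7.17 and 6.55 with IFN-γ, against 7.48, 7.39, 8.28 and 8.15 with LPS and 4.54 and 4.73 at 0 h. Every stimulated array lay above the untreated ones, and the difference was -1.15 ± 0.15 (adjusted p = 0.00045), or -0.98 without replicate 2 of IFN-γ at 2 h, which is under the minimum. Socs3, the inhibitor of the gp130 receptors, had 10.66 to 10.99 with IFN-γ, 10.97 to 11.49 with LPS and 5.63 to 5.75 in untreated cells. It had risen with either stimulus, by 5.12 with IFN-γ and 5.42 with LPS, and the difference of -0.30 ± 0.12 was not called (adjusted p = 0.25).

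Guanylate-binding proteins and immunity-related GTPases coat and break the vacuoles of microbes. Of 18 listed, only 9 were measured, so the rest of these families was not assessed. The median difference of the 9 was 0.68, beside 0.01 over all genes. Of the 9 measured, 4 were higher with IFN-γ and none was lower. Besides Iigp1 these were Irgm1, which regulates the other GTPases of its family (11.41, 11.36, 11.59 and 11.94 with IFN-γ, against 9.54, 9.97, 9.52 and 9.67 with LPS, 1.90 ± 0.15), Gbp7 (1.64 ± 0.12) and Gbp4 (1.23 ± 0.14). Gbp7, with the GAS pair shown above, had 9.99, 10.03, 10.52 and 10.22 with IFN-γ, against 8.29, 8.09, 8.86 and 8.95 with LPS and 7.49 and 7.84 at 0 h. Gbp5 behaved otherwise, with 8.04, 8.15, 8.79 and 8.82 with IFN-γ, against 7.85, 7.88, 8.75 and 8.94 with LPS and 4.40 and 4.64 at 0 h. It had risen with both stimuli, by 3.93 with IFN-γ and 3.84 with LPS, and the difference of 0.09 ± 0.11 was not called. Gbp2 and Gbp3 had also risen with both, and their differences of 0.68 and 0.30 were under the minimum. Some Gbp genes are close in sequence, and probe sets may share signal among them.

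Of 25 antiviral genes 4 were higher with IFN-γ and none lower, with a median of 0.36. Trim21, an antibody receptor of the cytosol, had 9.77, 9.57, 10.06 and 10.25 with IFN-γ, against 8.30, 8.29, 8.17 and 8.28 with LPS, which was the untreated level of 8.34 (1.65 ± 0.13, adjusted p = 9.3e-06). Mx2, an antiviral GTPase, had 6.70, 7.06, 7.64 and 7.18, against 5.68, 5.43, 5.52 and 5.88 (1.52 ± 0.15). Neither gene overlapped between the stimuli. Ifit2, which binds viral RNA, had a difference of 1.12 ± 0.21 and Zbp1, a sensor of Z-form nucleic acid, of 1.08 ± 0.11. The value of Ifit2 was 0.93 without replicate 1 of IFN-γ at 2 h and 1.00 without replicate 1 of LPS at 2 h, which ended its call, and that of Zbp1 was 1.00 with array medians centred. Rsad2 and Ifit1 had risen from 0 h with each stimulus, with 1.34 and 1.62 for IFN-γ and 1.26 and 1.25 for LPS, and differed by 0.08 and 0.37 between the stimuli, which did not pass. Isg15, a ubiquitin-like modifier, and Oasl1, which holds back Irf7 translation, were on the other side with -0.61 and -0.56, and they too did not pass (adjusted p = 0.052 and 0.12).

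Among antigen presentation genes Tap1 was called, at 2 h alone. Of 12 genes of the MHC class I pathway none was called over both times (median 0.10), and Tap1, the peptide transporter, came nearest with 0.98 ± 0.12 (adjusted p = 0.00025), at 10.04 to 10.46 with IFN-γ and 9.12 to 9.30 with LPS. Its arrays were apart at each time, and at 2 h its difference was 1.05 (adjusted p = 0.0015). Of 7 MHC class II genes none was called either (median -0.20), and Cd74, the invariant chain, differed by -0.15 ± 0.11. Ciita, the switch of class II transcription, had 5.75, 6.11, 6.20 and 5.53 with IFN-γ, against 5.71, 5.34, 6.48 and 6.27 with LPS, so the groups overlapped (-0.05 ± 0.21).

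Of the 3 chemokines that act on Cxcr3, Cxcl9 was called, and Cxcl10 and Cxcl11 were both 0.55 higher with IFN-γ, under the minimum (adjusted p = 0.0089 and 0.043). Cxcl10 had 10.99, 10.75, 11.81 and 11.61 with IFN-γ, against 10.33, 10.41, 11.05 and 11.16 with LPS and 6.64 and 6.82 at 0 h. At each time the IFN-γ arrays lay above the LPS arrays, yet both groups were far above untreated cells, by 4.56 with IFN-γ and 4.01 with LPS. Cxcl9 and Cxcl10 therefore differed in their levels with LPS, Cxcl9 at 0.16 and Cxcl10 at 4.01 from 0 h.

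In the list of neutrophil-attracting chemokines 3 of 6 measured were lower with IFN-γ. The median of -1.01 lay between those 3 and the members not called. Cxcl3, the neighbour of Cxcl1 and Cxcl2 on chromosome 5, had 4.36, 4.02, 5.78 and 4.26 with IFN-γ, against 6.07, 6.02, 6.44 and 7.49 with LPS (-1.90 ± 0.29, or -2.20 without replicate 1 of IFN-γ at 2 h). The members not called were Cxcl5, Pf4 and Ppbp, with differences from -0.12 to -0.04. Of 13 other chemokines 4 were lower with IFN-γ. Cxcl16, a membrane-bound ligand of Cxcr6, had 8.82, 8.98, 9.27 and 9.29 with IFN-γ, against 10.25, 10.39, 10.53 and 10.44 with LPS and 9.21 and 9.14 at 0 h (-1.31 ± 0.10, adjusted p = 8.9e-06). Ccl4, a chemokine that draws monocytes and T cells, had 9.92, 9.79, 9.88 and 9.57, against 11.01, 10.84, 11.27 and 11.22 (-1.30 ± 0.13), and unlike Cxcl16 it was also above the untreated level of 8.32 and 8.22 with IFN-γ. Ccl5 had 7.48, 7.45, 10.43 and 7.51 with IFN-γ, against 9.83, 9.95, 11.13 and 11.26 with LPS, and -2.33 ± 0.45 was called (adjusted p = 0.0084) but not with limma's trend and robust settings (adjusted p = 0.094). Without replicate 1 of IFN-γ at 2 h it was -2.94 (adjusted p = 4.2e-05), and at 2 h alone it was -2.23 with that array, which was not called (adjusted p = 0.077), and -3.69 without it (adjusted p = 1e-06). Ccl22 was called at -1.17 ± 0.27 and lost its call when any 1 array was left out other than replicate 1 of IFN-γ at 2 h or replicate 2 of LPS at 1 h, with -0.85 without replicate 2 and -1.51 without replicate 1 of IFN-γ at 2 h. Ccl12, a ligand of Ccr2, was the 1 chemokine of this list with all IFN-γ arrays above the LPS arrays (6.72, 6.58, 7.17 and 6.36, against 5.82, 5.68, 5.85 and 5.88), at 0.90 ± 0.16, under the minimum.

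Of 23 inflammatory cytokines 14 were lower and 1 was higher with IFN-γ, with a median of -1.15. Tnf had 10.55, 10.32, 11.01 and 10.39 with IFN-γ, against 12.96, 13.16, 12.78 and 12.91 with LPS and 10.22 and 9.99 at 0 h (-2.38 ± 0.16, adjusted p = 2.2e-06). Csf1, the growth factor that was also in the medium, had 8.29, 8.30, 8.77 and 8.46, against 10.14, 10.09, 10.91 and 10.85 (-2.04 ± 0.12). In both genes the groups were over 1 log2 unit apart. Csf2, the growth factor of granulocytes and macrophages, had 4.33 to 4.55 with IFN-γ, at its untreated level, and 7.65, 7.19, 6.10 and 6.63 with LPS (-2.46 ± 0.22). Il12b, the shared subunit of the cytokines IL-12 and IL-23, had 4.31 to 5.08 with IFN-γ, against 6.13, 6.42, 7.39 and 7.49 with LPS (-2.20 ± 0.23), and Edn1, the vessel-constricting peptide endothelin, had 3.72, 4.13, 5.57 and 3.88, against 6.24, 6.09, 7.09 and 7.16 (-2.32 ± 0.28, or -2.64 without replicate 1 of IFN-γ at 2 h). Il10, an inhibitory cytokine, was dim throughout, with 3.35 to 4.04 against 4.57 to 5.23 (-1.22 ± 0.16). The 1 cytokine on the other side was Tnfsf10, a death ligand, at 1.08 ± 0.26 (adjusted p = 0.035), and it lost its call when any 1 array was left out other than replicate 1 of IFN-γ at 1 h or replicate 2 of LPS at 1 h, with 0.77 without replicate 1 of IFN-γ at 2 h.

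Il6 and the nitric oxide synthase Nos2 were not called in the mean of both times, at -0.52 and -0.33. Without replicate 1 of IFN-γ at 2 h these values were -0.97 and -0.91, still under the minimum. Il6 had 3.77, 3.99, 5.78 and 3.50 with IFN-γ, against 4.57, 4.13, 5.05 and 5.35 with LPS, and Nos2 had 3.82, 4.19, 7.13 and 4.52, against 4.64, 4.65, 6.07 and 5.62. In both genes replicate 1 of IFN-γ at 2 h was the highest of the 8 arrays. Without it the difference at 2 h was -1.70 for Il6 (adjusted p = 0.0013) and -1.32 for Nos2 (adjusted p = 0.0081), against -0.56 and -0.02 with it, so the call of these 2 genes at 2 h turned on 1 array. Of the other genes high on that array, Saa3, an acute-phase protein, and Fscn1, which bundles actin, were chosen after their values were seen. They were not called over both times with the array, at -0.83 and -1.09, and were called without it, at -1.24 (adjusted p = 0.0062) and -1.44 (adjusted p = 0.022).

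The NF-κB list had the lowest median of the 24 lists, whose members were chosen with earlier results of these data known. Of 11 subunits and inhibitors 8 were lower and none higher with IFN-γ, with a median of -1.76, and all 11 had IFN-γ arrays below LPS arrays at each time. Over all genes tested 1.21% were called lower and 6.51% had their arrays below in this way. Nfkbiz, an atypical IκB that helps NF-κB at some promoters, had 7.35, 7.28, 8.13 and 7.52 with IFN-γ, against 11.92, 11.72, 11.92 and 11.88 with LPS (-4.29 ± 0.15, 19.6-fold lower, adjusted p = 5.4e-08). Nfkbid, another nuclear IκB, had 6.69, 6.78, 6.56 and 5.87, against 10.52, 10.42, 10.21 and 10.17 and an untreated level of 7.27 and 7.48 (-3.85 ± 0.14). Here the LPS arrays were above and the IFN-γ arrays below the untreated level, and the change with IFN-γ of -0.90 was under the minimum. Nfkbia, the classical inhibitor that holds NF-κB in the cytosol, had 9.47, 9.32, 10.03 and 9.56, against 12.86, 13.06, 12.70 and 12.72 (-3.24 ± 0.16). Nfkbie followed with -2.72 ± 0.20, Rel, the subunit induced in activated leukocytes, with -2.01 ± 0.10 and Relb with -1.76 ± 0.18. Rela, the subunit already present in resting cells, had 10.10 to 10.23 with IFN-γ and 10.65 to 10.90 with LPS, at -0.60 ± 0.10, under the minimum.

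Of 13 brakes of TLR signalling 5 were lower with IFN-γ, none was higher, and the median was -0.87. Tnfaip3, an enzyme that trims ubiquitin chains from the signal complexes, had 7.65, 7.56, 8.01 and 7.64 with IFN-γ, against 11.59, 11.93, 11.19 and 11.24 with LPS (-3.77 ± 0.17, 13.7-fold lower, adjusted p = 1.1e-07). Traf1, an adaptor of TNF receptors, had 6.49 to 7.27 against 9.32 to 9.76 (-2.75 ± 0.14), and Tnip1, which binds Tnfaip3, had 8.56 to 8.73 against 9.95 to 10.54 (-1.57 ± 0.12). The groups did not overlap in these 3 genes, and the IFN-γ arrays were near the untreated level. Tollip, Sigirr and Cyld, which also restrain TLR signals, had differences of -0.12, 0.15 and -0.02.

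Immediate early transcription factors, which growth factors and MAP kinases switch on without new protein, were lower with IFN-γ in 11 of 22 cases and higher in none (median -1.19). Egr1 had 5.73, 5.39, 5.60 and 5.41 with IFN-γ, against 10.16, 9.97, 8.61 and 8.56 with LPS (-3.79 ± 0.24, adjusted p = 1.5e-06). Egr2, its relative, had 9.01, 9.14, 8.83 and 8.71, against 11.86, 11.81, 11.54 and 11.71 (-2.80 ± 0.10), and Junb, an AP-1 subunit, had 7.89, 7.85, 7.90 and 7.52, against 10.26, 9.89, 9.83 and 9.85 (-2.17 ± 0.12). In all 3 the stimuli were parted at each time. Fos, the partner of Jun proteins, had 5.07, 5.49, 5.10 and 4.99 with IFN-γ, against 7.65, 7.79, 6.10 and 6.75 with LPS and 6.62 and 6.70 at 0 h. With IFN-γ it fell below untreated cells, as called against 0 h. With LPS both arrays at 1 h lay above the untreated arrays, and those at 2 h lay on either side of them. The LPS difference from 0 h as a mean of both times, 0.41, was not called. Nr4a1, a nuclear receptor, had -2.27 ± 0.15 and Maff, a small Maf protein, -2.26 ± 0.14. Jun had 10.94, 10.99, 10.79 and 11.05 with IFN-γ, against 10.97, 11.06, 9.91 and 9.93 with LPS, so the groups overlapped at 1 h and were apart at 2 h.

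The dual-specificity phosphatases, which switch off MAP kinases, were lower with IFN-γ in 7 of 10 cases and higher in none (median -1.54). Dusp1 had 8.90, 8.97, 9.27 and 9.03 with IFN-γ, against 12.44, 12.65, 11.94 and 11.90 with LPS and 10.62 and 10.68 at 0 h (-3.19 ± 0.16, adjusted p = 2.8e-07). It fell with IFN-γ against 0 h, by 1.61, and rose with LPS by 1.58. Dusp2 had 4.19 to 5.02 against 6.61 to 8.29 (-2.67 ± 0.25) and Dusp5 had 6.91 to 6.96 against 8.88 to 9.42 (-2.21 ± 0.12). Dusp6, the phosphatase of ERK, was below its 0 h level with both stimuli. It had 9.08, 8.89, 8.47 and 8.07 with IFN-γ, against 9.06, 9.11, 8.15 and 7.94 with LPS and 10.08 and 10.12 at 0 h. The arrays of the stimuli overlapped and lay below untreated cells, by -1.47 with IFN-γ and -1.54 with LPS.

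Of 9 factors of mRNA decay 3 were lower with IFN-γ (median -0.74). These were the endonuclease gene Zc3h12a, with 7.12, 6.97, 7.68 and 7.08 against 9.96, 9.95, 10.25 and 10.36 (-2.92 ± 0.13), its relative Zc3h12c (-2.91 ± 0.12) and Btg2, which recruits deadenylases (-2.96 ± 0.21). Zfp36, which binds AU-rich elements in cytokine transcripts, had 10.13 to 10.30 with IFN-γ, against 10.23 to 11.01 with LPS and 8.52 and 8.36 at 0 h. It had risen with either stimulus, by 1.78 with IFN-γ and 2.16 with LPS, and their difference was -0.39 ± 0.13 (adjusted p = 0.13).

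Survival and growth arrest genes went both ways, with 5 lower and 1 higher of 14 (median -0.68). Within the Gadd45 family, stress proteins that bind MAP kinase kinases, Gadd45b had 9.11, 9.23, 9.58 and 8.15 with IFN-γ, against 12.13, 11.84, 12.05 and 11.92 with LPS (-2.97 ± 0.24), while Gadd45g had 8.66, 8.75, 8.73 and 8.45, against 6.88, 6.67, 6.88 and 6.78 (1.85 ± 0.11, adjusted p = 9.8e-07). Gadd45a, the other member, had -0.66 ± 0.14, under the minimum. The family members were thus parted in opposite directions, each without overlap. Bcl2l11, a pro-death relative of Bcl2, was lower with IFN-γ at -1.93 ± 0.11, and so was Cflar, which blocks death receptor signals, at -1.40 ± 0.13.

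Of 13 effector enzymes 2 were lower with IFN-γ, Ptgs2 and Acod1. Acod1, which makes the antimicrobial metabolite itaconate, had 9.66, 9.59, 11.53 and 10.87 with IFN-γ, against 12.23, 12.27, 12.59 and 12.61 with LPS and 8.40 and 8.27 at 0 h (-2.01 ± 0.23). It was above 0 h with both stimuli, by 2.08 with IFN-γ and 4.09 with LPS. Sphk1 and Ch25h, which make a signalling lipid and an oxysterol, were 0.95 and 0.80 higher with IFN-γ, under the minimum. Of 15 co-stimulation and adhesion genes 7 were lower (median -0.92). Vcam1, an integrin ligand, had 4.51, 5.07, 5.59 and 4.61 with IFN-γ, against 7.01, 7.21, 7.67 and 7.45 with LPS (-2.39 ± 0.20), and Cd40, the receptor through which T cells activate macrophages, had 7.51, 7.52, 8.91 and 7.63, against 10.00, 9.73, 10.44 and 10.46 and an untreated level of 6.21 and 6.37 (-2.26 ± 0.22). Cd274, the checkpoint ligand of Pdcd1, pointed the other way with 10.49, 10.50, 11.11 and 11.38, against 9.62, 10.14, 10.24 and 10.25, and at 0.81 ± 0.14 it was under the minimum.

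Of 21 genes of pattern recognition and the inflammasome 4 were lower and 1 was higher with IFN-γ (median -0.03). Nlrp3, the inflammasome sensor, had 8.37, 8.48, 8.56 and 8.22 with IFN-γ, against 10.74, 11.00, 11.16 and 11.00 with LPS and 8.50 and 8.39 at 0 h (-2.57 ± 0.12, adjusted p = 1.9e-07), and Tlr2, a receptor of bacterial lipoproteins, had 8.81 to 9.18 against 10.91 to 11.26 (-2.07 ± 0.12). The peptidoglycan sensors Nod1 and Nod2 went opposite ways. Nod1 had 7.22, 7.11, 7.82 and 7.46 with IFN-γ, against 5.97, 6.30, 6.15 and 6.39 with LPS (1.20 ± 0.13), and Nod2 had 6.61, 6.84, 6.77 and 6.54, against 8.00, 7.68, 8.27 and 8.24 (-1.36 ± 0.14). Neither gene overlapped between the stimuli, and Nod1 with LPS was at its untreated level of 6.10 and 6.32. Tlr4, the LPS receptor, differed by 0.33 ± 0.15 (adjusted p = 0.36), and Cd14, its co-receptor, by -0.95 ± 0.12, under the minimum.

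Of 11 TNF and IL-1 receptor family genes Il4ra was higher (1.03 ± 0.12) and Tnfrsf1b lower (-1.05 ± 0.12) with IFN-γ. Both lost their calls by falling under the minimum in single alternatives, Il4ra with 0.95 when array medians were centred, 0.99 without replicate 2 of IFN-γ at 1 h and 0.93 without replicate 1 at 2 h, and Tnfrsf1b with -0.96 without replicate 2 of IFN-γ at 2 h. Genes of the macrophage lineage were alike, with 1 of 28 called, the transcription factor Cebpb, which had 8.06, 8.30, 7.90 and 7.75 with IFN-γ, against 9.32, 8.72, 9.47 and 9.27 with LPS (-1.20 ± 0.17). Fcgr1, the high-affinity IgG receptor, was on the other side at 0.88 ± 0.10, under the minimum. None of 22 cell cycle genes and none of 15 genes of cholesterol synthesis and export was called, with medians of 0.08 and -0.18.

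**Figure D3:**
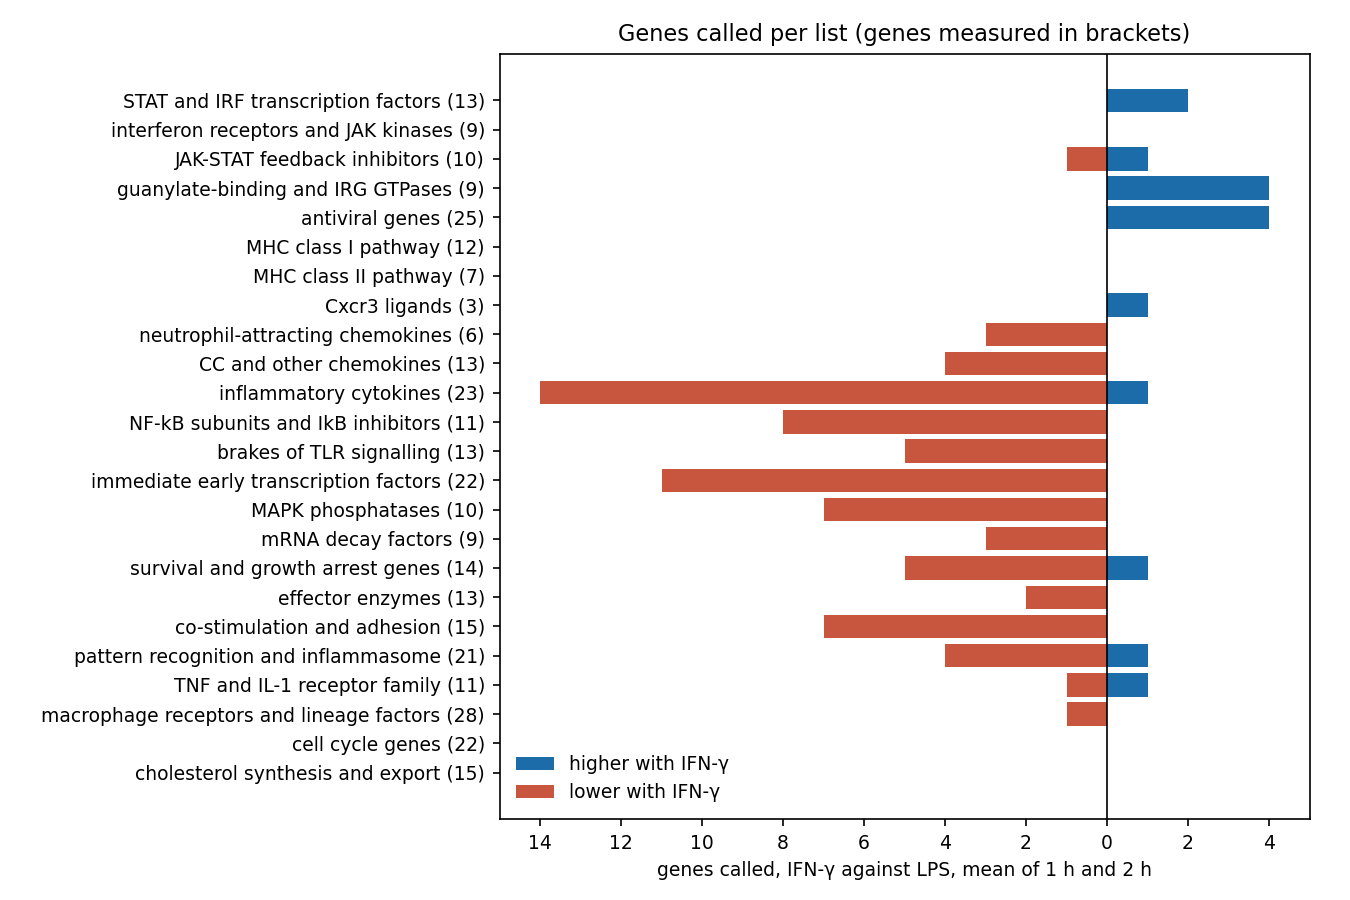
Number of genes of each list called in IFN-γ against LPS over 1 h and 2 h (horizontal axis, lower with IFN-γ to the left in red and higher to the right in blue), with the genes measured in brackets. The longest red bars are the inflammatory cytokines with 14 genes and the immediate early factors with 11, and the longest blue bars are the GTPases and the antiviral genes with 4 each.

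MicroRNA genes were on the array as probe sets for the gene, so these values speak of the primary transcript or hairpin and not of the mature miRNA. Mir155, which is processed from a transcript induced in activated leukocytes, had 4.14, 4.21, 5.07 and 3.94 with IFN-γ, against 7.99, 8.08, 8.77 and 8.44 with LPS and 4.56 and 4.17 at 0 h (-3.98 ± 0.20, 15.8-fold lower, adjusted p = 2.8e-07). IFN-γ arrays were at the untreated level and near the dim end. Of 306 miRNA genes measured, 2 were called higher (0.65%) and 7 lower (2.29%), beside 0.484% and 1.21% of all genes. The following were chosen after their values were seen. Mir221 and Mir222, which lie side by side on chromosome X, were lower with IFN-γ, at 5.12, 5.15, 6.10 and 4.96 against 7.82, 8.58, 7.63 and 7.48 for Mir221 (-2.55 ± 0.27) and at 4.02 to 4.60 against 6.22 to 6.81 for Mir222 (-2.30 ± 0.16). Mir146, known to target adaptors of TLR signalling, was dim, with 2.48 to 2.73 against 3.71 to 4.28 (-1.34 ± 0.13). The mature sequences from RefSeq are shown to compare their seeds, bases 2 to 8, in capitals. The 3p products of Mir221 and Mir222 share 1 seed, and the seeds of Mir155 and Mir146 are different from it and from each other.
miR-155-5p: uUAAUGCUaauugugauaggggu
miR-221-3p: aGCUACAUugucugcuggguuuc
miR-222-3p: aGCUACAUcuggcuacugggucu
miR-146a-5p: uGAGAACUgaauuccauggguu

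At 1 h alone 278 genes were called (1.48%), of which 78 were higher (0.414%) and 200 lower (1.06%) with IFN-γ. At 2 h alone 412 were called (2.19%), with 143 higher (0.76%) and 269 lower (1.43%). Without the 2 arrays parted by probe sets without an annotated gene, the calls at 2 h were 196 higher and 235 lower. Whether a difference changed between the times was tested by the interaction, which called 0 genes (0%) with limma, with 2064 genes at an unadjusted p under 0.05, so the counts at 1 h and 2 h are not shown to differ for any gene. Iigp1 had a difference of 2.75 ± 0.21 at 1 h and 4.19 ± 0.21 at 2 h, and its change of 1.44 did not pass (adjusted p = 0.36). Egr1 had -4.50 ± 0.15 at 1 h and -3.08 ± 0.15 at 2 h, with a change of 1.42 (adjusted p = 0.28). Il1b, Ptgs2 and Cxcl2 had differences of -5.25, -4.03 and -4.85 at 2 h, which were -7.36, -6.06 and -6.64 without replicate 1 of IFN-γ at 2 h. With all 64 arrays in 1 fit, which gives a firmer estimate of the spread, 8 genes were called, among them Jun (1.05, adjusted p = 0.00095) and Ier3, an early response gene (1.06, adjusted p = 0.0086). Without replicate 2 of IFN-γ at 2 h, 6 genes were called, Ptgs2, Il1b, Cxcl2, Il1a, Ccl5 and Acod1, and the first 5 of these were among the 20 genes that stood high on the remaining replicate.

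**Figure D4:**
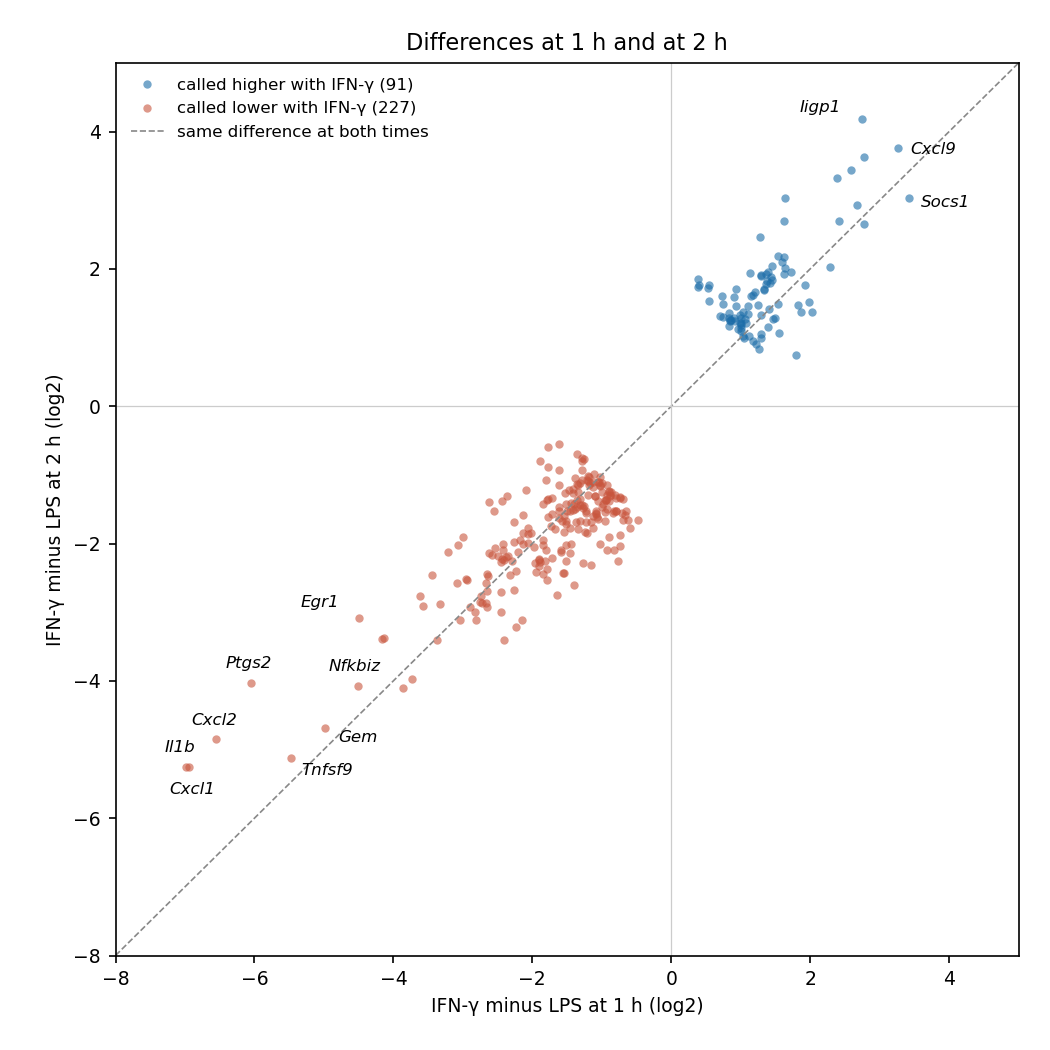
Difference between IFN-γ and LPS at 1 h (horizontal axis, log2) and at 2 h (vertical axis, log2) for the 91 genes called higher (blue) and the 227 called lower (red) in the mean of both times. Points on the dashed line have the same difference at both times. Iigp1 lies above the line on the higher side, and Cxcl1, Il1b, Cxcl2, Ptgs2 and Egr1 lie above it on the lower side, closer to 0 at 2 h than at 1 h.

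Each stimulus was also set against untreated cells, with the same 2 arrays at 0 h in both comparisons. Genes given here as changed are those that differed from 0 h, which includes whatever time in culture changed. IFN-γ changed 123 genes (0.654%), 112 higher (0.595%) and 11 lower (0.0584%), and without replicate 1 of IFN-γ at 2 h the lower count was 19. LPS changed 288 genes (1.53%), 263 higher (1.4%) and 25 lower (0.133%). The 91 genes called higher with IFN-γ than with LPS had a median difference from 0 h of 1.09 with IFN-γ and -0.34 with LPS. The 227 genes called lower had a median difference of -0.02 with IFN-γ and 1.71 with LPS. By lists, the GTPases had a median of 2.09 with IFN-γ and 0.38 with LPS, with 7 and 3 of the 9 measured of 18 listed risen. The NF-κB list had a median of -0.03 with IFN-γ and 1.83 with LPS, with 2 and 9 of 11 risen, and the co-stimulation list had 0.33 and 1.91, with 5 and 9 of 15 risen. Of the phosphatases 2 of 10 fell and none rose with IFN-γ (median -0.38), and 7 rose and 1 fell with LPS (median 1.46).

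**Figure D5:**
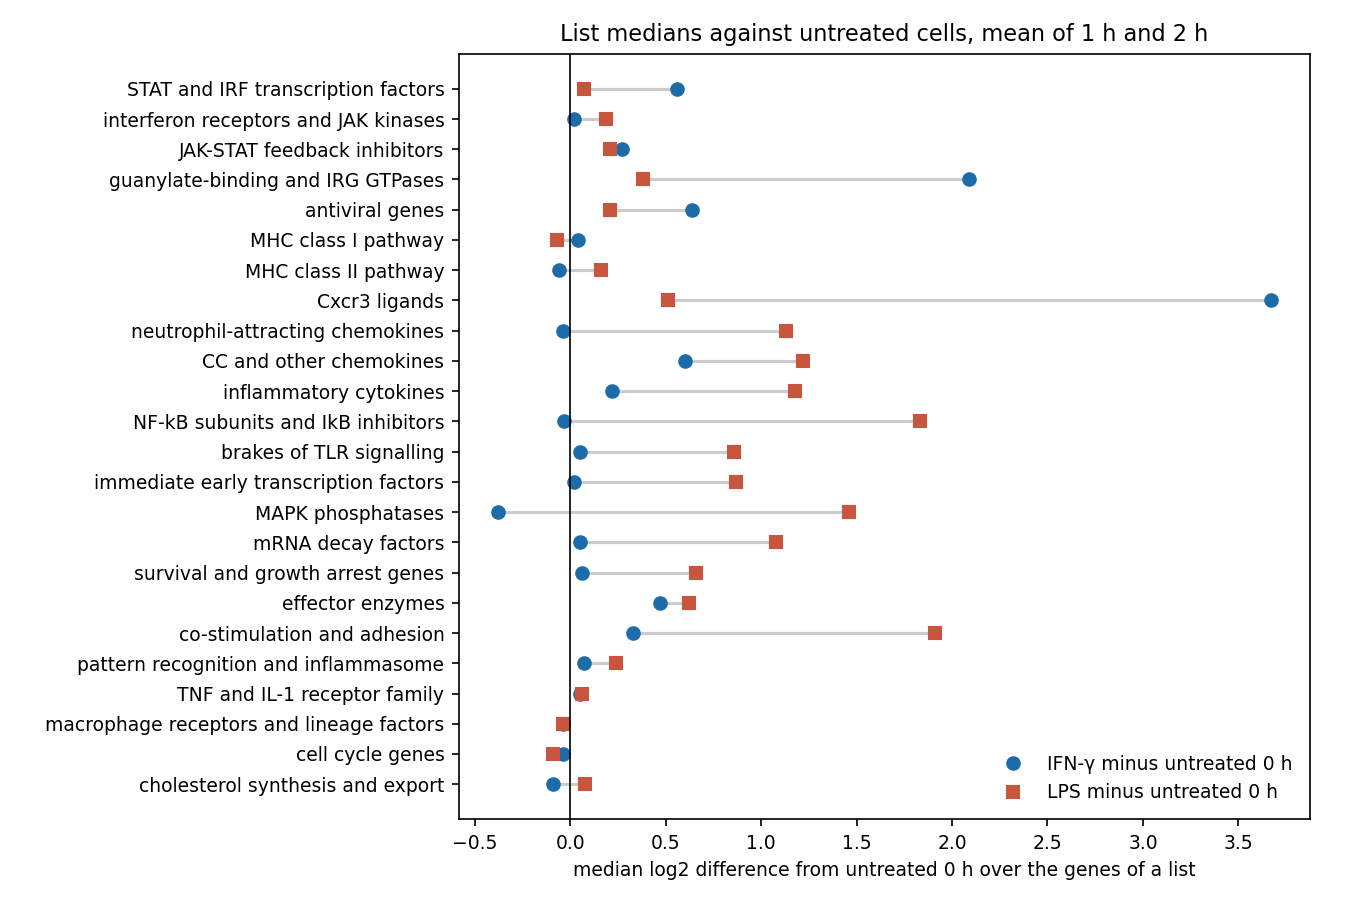
Median log2 difference from untreated cells at 0 h over the measured genes of each list (horizontal axis), for IFN-γ (blue circles) and LPS (red squares), as means of 1 h and 2 h. Both use the same untreated arrays. The circle lies farthest to the right for the Cxcr3 ligands at 3.67 and the GTPases at 2.09, and the squares for co-stimulation at 1.91 and NF-κB at 1.83.

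The same contrast at 4, 8 and 24 h used other arrays, 2 a side at each time. Of the 91 genes called higher, 52 were called higher again at 4 h, 31 at 8 h and 27 at 24 h, where 1.7%, 4.45% and 4.27% of all genes were. Of the 227 called lower, 154, 147 and 112 were called lower at these times, where 2.46%, 3.63% and 3.54% of all genes were. The medians of the higher genes were 1.27, 0.54 and 0.20 at 4, 8 and 24 h, and those of the lower genes -1.49, -1.47 and -0.99. Socs1, the feedback inhibitor, had differences of 0.55, 0.14 and 0.06 at the later times, none called, and Selp had 3.91, 2.66 and -0.03, with the last not called. Irf8 remained higher with IFN-γ, at 2.02, 1.69 and 1.16. Nfkbia remained lower, at -2.01, -1.86 and -2.10, and Tnfsf9 had -3.88, -1.12 and -0.05, with the last not called. Some genes were called on the other side later. Of the 91 higher genes 1, 6 and 3 were called lower at 4, 8 and 24 h, and of the 227 lower genes 1, 5 and 8 were called higher. Mx2 was called lower at all 3 times (-2.72, -2.64 and -2.29), Oas1b at 8 h (-2.11) and 24 h (-2.36), and Trim21 (-1.35) and Tnfsf10 (-1.84) at 8 h. Fos was called higher with IFN-γ at 4 h (1.88 ± 0.15) and 8 h (2.23 ± 0.15) after -1.91 ± 0.22 over 1 h and 2 h.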

How the data were processed

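Levels came from a table of linear intensities for 35556 probe sets on 64 arrays, deposited by the authors. Per the submitters' processing notes the values were made with Affymetrix Expression Console 1.1, and the summarisation and normalisation method is not given in the sources used here. A log2 was taken, with no further scaling in the reported values. Of the probe sets, 21218 had 1 gene symbol in the platform annotation, 1881 had several and 12457 had none. For the 1386 genes with several probe sets the brightest probe set by its mean over arrays stood for the gene, leaving 18820 genes.

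IFN-γ was compared with LPS in limma 3.58.1 (R 4.3.3) on 8 arrays with time as a block. Single times, the interaction and the differences from 0 h came from a fit of 5 group means on 10 arrays. All p-values are limma's, adjusted by Benjamini-Hochberg over all genes. Scripts were tested on simulated data. The members and gene lists were chosen with earlier results of these data known. Genes were named as the 12 largest differences each way among calls with arrays apart at each time, as list members (called and largest first), and as promoters holding GAS or κB matches, without gene-model names. Alternatives covered scaling, dim genes, probe sets, the fit and single arrays. Same-numbered arrays were checked for pairing, and correlations of their deviations lay between -0.075 and 0.321, so the numbers were not taken as pairs. Close gene families such as Gbp, Oas1 and Cxcl1 to Cxcl3 may share probe signal.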

Additional observations from a re-analysis of the deposited data

How the results depend on the processing

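Each of 101 named genes was recomputed under 19 alternatives, or 18 for Il23a, and all 1918 values kept their direction, 34 of them lost the call, and 89 genes never did. The genes that lost it were Ccl22, Ccl5, Cish, Ifit2, Il23a, Il27, Il4ra, Osm, Tnfrsf1b, Tnfsf10, Tnfsf15 and Zbp1. With no minimum difference, the calls were 1015 for IFN-γ against LPS over both times, 576 at 1 h, 1005 at 2 h, 241 for IFN-γ against 0 h and 779 for LPS against 0 h, since smaller differences then count. The change of the difference between 1 h and 2 h gave 8 calls with all 64 arrays in 1 fit and 1 call without the 2 arrays parted by probe sets without an annotated gene, against 0 calls as reported, and the cause was not tested. Leaving out 1 array at a time gave 301 to 342 calls over both times, 257 to 338 at 1 h, 382 to 473 at 2 h, 0 to 6 for the change between times, 111 to 142 for IFN-γ against 0 h and 275 to 307 for LPS against 0 h. Centring array medians moved the median of all genes at 2 h to -0.11 and gave 72 higher and 249 lower over both times. With only the 250 bases before the start, a GAS match was in 20.5% of promoters of genes called higher, and the κB consensus in 11.8% of those called lower and 2.41% of those called higher.

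With the replicate number as a block, IFN-γ against LPS had 318 calls over both times, 282 at 1 h and 415 at 2 h, the change between times had 0, IFN-γ against 0 h had 123 and LPS against 0 h had 288. The replicate block moved no count by over 1.5 times. Of the called genes, 13 of the 91 higher and 13 of the 227 lower had a mean under the 40th percentile on the lower side, where signal over background limits the fold. Arrays of 2 wells a group limit the precision of every value.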

Other observations

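Genes in these paragraphs were chosen after their values were seen, and differences from 0 h use the same 2 untreated arrays for both stimuli. A small set was higher with IFN-γ than with LPS and had fallen with LPS against 0 h, with no rise called for IFN-γ. Osgin1, an oxidative stress response gene, averaged 8.17 with IFN-γ, 6.59 with LPS and 7.97 at 0 h, so its difference of 1.58 ± 0.11 went with -1.38 from 0 h with LPS. Tfap4, a transcription factor of the helix-loop-helix class, averaged 7.96 with IFN-γ, 6.21 with LPS and 7.46 at 0 h. Cnr2, the cannabinoid receptor of immune cells, and Thbd, the thrombin-binding receptor thrombomodulin, were also called lower with LPS than at 0 h, at -1.40 and -1.10, while their differences from 0 h with IFN-γ of -0.35 and -0.08 were not called. The reverse was seen in Rgs1, Rhob and Tgif1, which were called lower with IFN-γ than at 0 h, at -1.44, -1.22 and -1.13, and whose differences from 0 h with LPS of 0.40, 0.48 and 0.86 were not called. Rgs1 quenches G protein signals, Rhob is a small GTPase and Tgif1 is a repressor of TGF-β signals.

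Other genes had risen with both stimuli and by different amounts. Prdm1, a transcriptional repressor, averaged 7.37 with IFN-γ, 9.73 with LPS and 5.85 at 0 h, and its difference between the stimuli was -2.36 ± 0.10. Pde4b, a phosphodiesterase that degrades cyclic AMP, averaged 7.79 with IFN-γ, 9.34 with LPS and 6.23 at 0 h (-1.54 ± 0.10). Calhm6 ran the other way, at 7.18 with IFN-γ, 5.91 with LPS and 4.66 at 0 h (1.27 ± 0.11). Of 384 genes with Zfp or Zbtb symbols, most of which encode zinc finger proteins, 10 were called higher (2.6%) and 4 lower (1.04%) with IFN-γ than with LPS, with a median of 0.21, beside 0.484% and 1.21% of all genes. Against 0 h, 1 of the 384 was called higher and 0 lower with IFN-γ, and 5 were called higher and 4 lower with LPS. Among the miRNA genes Mir181b-1 was higher with IFN-γ, at 5.71 against 4.01 with LPS and 4.92 at 0 h (1.70 ± 0.17).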
